A study of Mus musculus with 9 samples.

Results

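Torin-2 was compared with rapamycin in macrophages grown from mouse bone marrow and fed spinal cord homogenate, over 6 of the 9 RNA sequencing libraries of the study, 3 per compound. The other 3 libraries received vehicle, and they are used here for the spread of each gene and as a reference level. The macrophages came from wild-type C57BL/6J male and female mice aged 8 to 12 weeks, with the marrow of different animals kept apart. All cells were exposed to compound or vehicle for 2 h, then to pooled spinal cord homogenate at 10 mg per mL (1% weight per volume) for 24 h, so no group was free of homogenate. The labels state no dose for either compound. Every gene that passed a filter on low counts entered the comparison, which asks what the ATP-site inhibitor did to transcript levels beyond what rapamycin did.

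The mTOR kinase works in a pair of complexes. mTORC1 drives protein synthesis, ribosome production and anabolic metabolism and holds back autophagy and lysosome genes, and mTORC2 phosphorylates AKT and so keeps FOXO transcription factors out of the nucleus. Rapamycin binds FKBP12 (encoded by Fkbp1a), and that complex inhibits mTORC1 allosterically and blocks only some of its substrates, with 4E-BP phosphorylation known to be relatively resistant. Torin-2 binds the ATP site of the kinase and inhibits both complexes, and it is also known to act on the related kinases ATM, ATR and DNA-PK. In this design these targets cannot be told apart.

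The 6 libraries held 16116666 to 24044329 counts, and levels are given as CPM, each gene's count scaled to library size with edgeR's TMM factors. Of the 53342 genes listed, 12511 passed the filter on low counts and were tested. A gene was called when its adjusted p from edgeR's quasi-likelihood test was below 0.05 over all tested genes, and every fold change below is Torin-2 over rapamycin on the log2 scale, from that test, unless another comparison is named. The first principal component of the 6 libraries held 65.1% of the variance and separated the compounds, and the second held 17.5% and set both libraries numbered 3 apart from the other 4. Of the 20 macrophage markers, 20 were tested, and Lyz2, Cd68, Adgre1 and Csf1r stood at 14931, 2856, 708 and 700.2 CPM in the rapamycin group. In these bulk libraries fewer cells of a kind and less RNA per cell cannot be told apart.

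Torin-2 and rapamycin left a large share of the tested genes at different levels, in both directions alike. Of 12511 tested genes, 6035 (48.2%) were called: 3025 (24.2%) were higher and 3010 (24.1%) lower with Torin-2. Most differences were small, with a median absolute log2 fold change of 0.34 and a 90th percentile of 1.07. At least a 2-fold rise was called for 647 genes (5.17%) and at least a 2-fold fall for 552 (4.41%). The 3 libraries of each compound did not overlap for 7154 genes (57.2%), of which 3620 were higher and 3534 lower. These shares are the background for the counts of list members below, where most paragraphs do not repeat them. The shares run over all levels and were not matched to the levels of a list, although calls depended on level.

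The calls were not spread evenly over kinds of gene. Long noncoding genes were called higher far more often than lower, 140 against 42 of 610 tested (23.0% and 6.89%), while protein-coding genes were balanced, 2823 against 2920 of 11292 (25.0% and 25.9%). Calls also moved with level. Among the 1684 genes at a mean of 100 to 1000 CPM, 42.3% were lower and 27.8% higher, while among the 2963 genes at 5 to 20 CPM, 19.2% were lower and 27.5% higher. Scaling by library totals alone, without TMM factors, moved the median of all genes from -0.001 to 0.07 and the split to 3635 higher and 2456 lower.

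**Figure D1:**
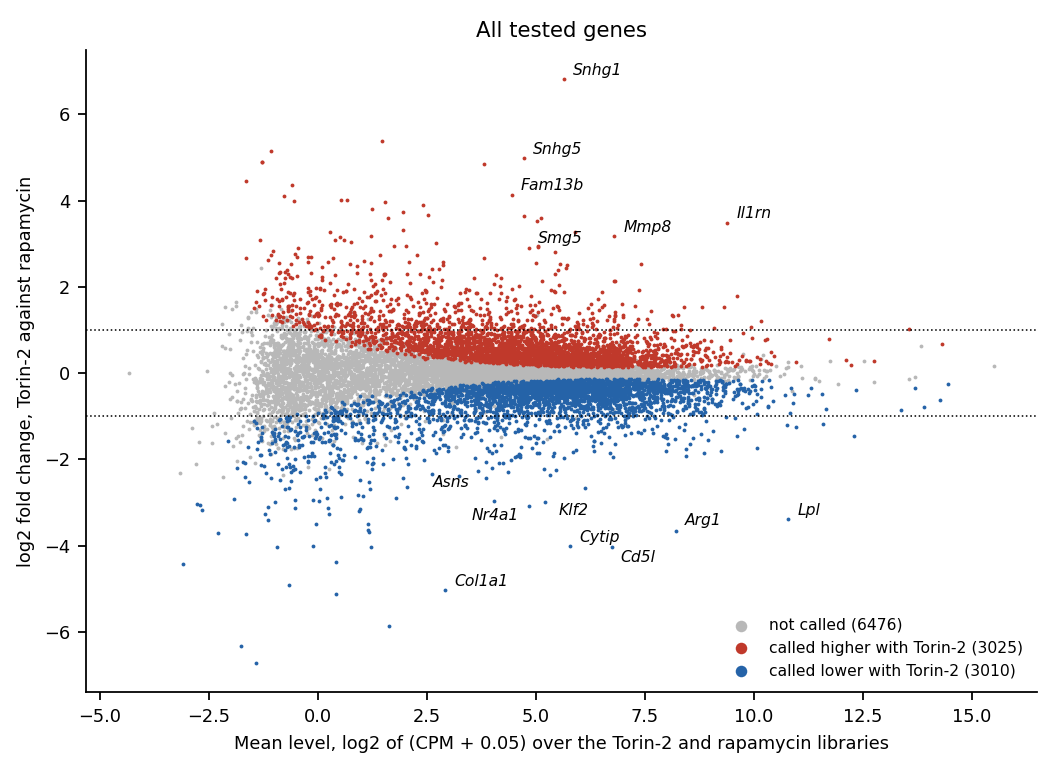
Each point is 1 tested gene, with its mean level over the 6 libraries on the horizontal axis (log2 of CPM plus 0.05) and its log2 fold change, Torin-2 against rapamycin, on the vertical axis. Red marks the 3025 genes called higher, blue the 3010 called lower and grey the rest, and dotted lines mark 2-fold; Snhg1 lies farthest above the lines among the labelled genes and Col1a1 farthest below.

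The genes that moved most were a mix of noncoding RNAs, inflammatory genes and lipid genes. Snhg1, a noncoding host transcript of small nucleolar RNAs (ENSMUSG00000108414, chromosome 19, 8723475 to 8726443 in GRCm38), stood at 92.9, 104 and 101 CPM in the 3 Torin-2 libraries and 0.386, 1.14 and 1.00 CPM in the 3 rapamycin libraries. The groups did not overlap, and its fold change was 6.81 ± 0.22 (SE), with an adjusted p of 4.8e-09. Il1rn, the secreted antagonist of the interleukin-1 receptor (ENSMUSG00000026981, chromosome 2, 24336853 to 24351494), rose from 117, 86.0 and 130.2 CPM with rapamycin to 1235, 1008 and 1477 CPM with Torin-2. The lowest Torin-2 library lay far above the highest rapamycin library, rapamycin lay beside the vehicle mean of 108 CPM, and Il1rn was the most abundant of the 15 largest rises (3.48 ± 0.18 (SE), adjusted p = 8.6e-08). Mmp8, a collagenase best known from neutrophils, rose from 22.5 ± 7.09 to 201 ± 14.2 CPM (mean ± SD, n = 3 each).

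The largest falls included genes of lipid handling and the arginase gene Arg1. Lpl, the lipoprotein lipase that releases fatty acids from triglyceride-rich particles (ENSMUSG00000015568, chromosome 8, 68880491 to 68907448), fell from 3358, 3127 and 3268 CPM with rapamycin to 283, 369.8 and 279.8 CPM with Torin-2. The groups did not overlap, and Torin-2 was also below the vehicle mean of 1951 CPM (-3.39 ± 0.12 (SE), adjusted p = 4.8e-09). Arg1, the arginase of alternatively activated macrophages (ENSMUSG00000019987, chromosome 10, 24915221 to 24927484), fell from 586, 769 and 307 to 49.8, 59.5 and 22.3 CPM. Replicate 3 was the lowest of both groups, rapamycin sat far above the vehicle mean of 31.6 CPM, and Torin-2 sat on either side of it (-3.67 ± 0.36 (SE), adjusted p = 8.2e-06). Cd5l, a secreted macrophage protein that regulates lipid metabolism and survival (ENSMUSG00000015854, chromosome 3, 87357881 to 87371073), was 1038, 1014 and 1374 CPM with vehicle, 181, 211 and 216 with rapamycin and 10.5, 11.5 and 15.1 with Torin-2. All groups were apart, in that order (-4.02 ± 0.16 (SE) for Torin-2 against rapamycin, adjusted p = 8.7e-09).

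**Figure D2:**
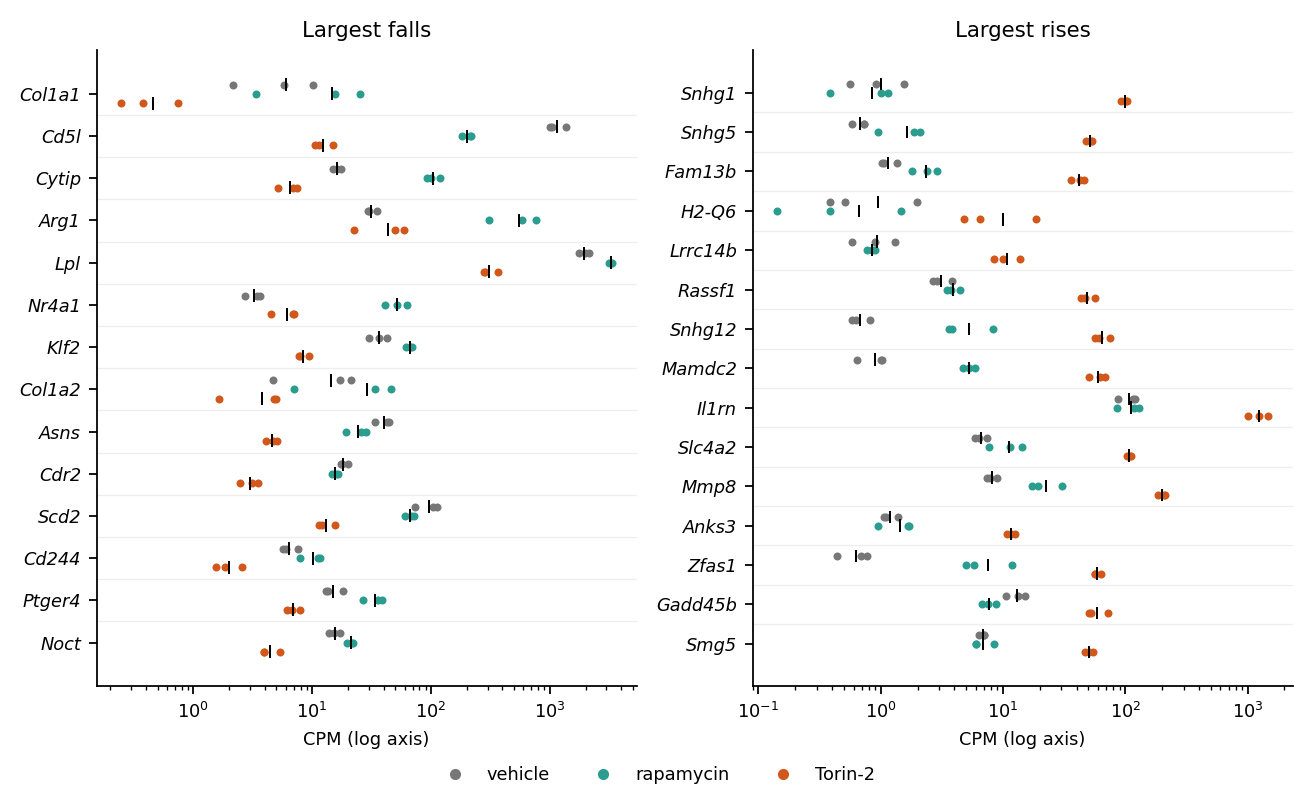
CPM in each library (points, log axis) for 14 of the 15 largest falls and the 15 largest rises of the naming rule, with a black tick at each group mean and 3 libraries per group. Torin-2 (orange) and rapamycin (green) points do not overlap for any of the 29 genes, since the rule required this; for Lpl, Arg1, Cytip and Nr4a1 the rapamycin points lie above vehicle (grey), whereas for Snhg1 and Il1rn they lie beside it.

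The other large rises were Snhg5 (4.99), Fam13b (4.13), Lrrc14b (3.66), Rassf1 (3.64), a scaffold of the Hippo pathway, Snhg12 (3.61), Mamdc2 (3.52), the anion exchanger Slc4a2 (3.27), Anks3 (3.02), Zfas1 (2.95), the stress sensor Gadd45b (2.93) and the decay factor Smg5 (2.90). H2-Q6 also rose (3.90), but it belongs to a family of near-identical class I genes between which reads may have been split, so its value is uncertain. Other large falls were the collagen genes Col1a1 (-5.03) and Col1a2 (-2.97), Cytip (-4.01), which regulates integrin adhesion, the nuclear receptor Nr4a1 (-3.08), the transcription factor Klf2 (-2.99), Asns (-2.43), Cdr2 (-2.39), the stearoyl-CoA desaturase Scd2 (-2.37), Cd244 (-2.34), the prostaglandin E2 receptor Ptger4 (-2.29) and the deadenylase-like clock gene Noct (-2.27). Slc4a2, Lrrc14b, Zfas1, Rassf1, Cd244 and Ptger4 overlap another tested gene in GENCODE M21, and since the strand setting of the counts is not known their values are uncertain to that extent.

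The mTOR pathway's own transcripts moved in both directions and by little. Of 44 tested genes for mTOR complexes, PI3K and AKT, 14 were higher and 15 lower, with a median of -0.13 beside -0.001 for all genes. With scaling by library totals alone, 9 were lower. Mlst8, the subunit that both complexes share, stood at 9.08, 11.3 and 12.2 CPM with rapamycin and 27.0, 22.7 and 28.2 CPM with Torin-2. The groups did not overlap, and this was the only member called with at least a 2-fold change (1.25 ± 0.12 (SE), adjusted p = 5.2e-06). Rictor, which defines mTORC2, rose by 0.36, and Rptor, which defines mTORC1, fell by 0.26 (adjusted p = 0.0095).

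The kinases and brakes of the pathway showed the same small scale. Akt1 was 315, 318 and 312 CPM with Torin-2 and 329, 329 and 318 CPM with rapamycin and was not called (-0.05, adjusted p = 0.41). Rps6kb1, which encodes S6 kinase 1, was not called either (-0.09, adjusted p = 0.34). Fkbp1a, the rapamycin receptor, fell from 234 ± 9.55 to 164 ± 5.37 CPM (-0.52, adjusted p = 1e-05), and its vehicle mean was 221 CPM. The stress-induced mTORC1 brakes Sesn1, Sesn2 and Sesn3 fell by similar amounts (-0.87, -0.78 and -0.71). For the 4E-BP genes, Eif4ebp2 rose (0.23, adjusted p = 0.0036), and Eif4ebp1 fell (-0.29, adjusted p = 0.034). The call of Eif4ebp1 was lost without Torin-2 replicate 1, Torin-2 replicate 3, rapamycin replicate 2 or rapamycin replicate 3 in turn, and with library totals alone, with fold changes of -0.29 to -0.22 there, and it was -0.16 without the libraries numbered 3. The transcript of Mtor itself stood at 29.5, 29.0 and 33.2 CPM with Torin-2 and 40.5, 34.0 and 36.5 CPM with rapamycin (-0.27, adjusted p = 0.047), a call lost under 8 of the 20 alternatives tried, and in 5 of these 1 library was left out.

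FOXO targets, which rise when AKT is less active, were more often higher than lower. Of 34 tested genes of this list, 18 were higher and 6 lower, with a median of 0.28 beside -0.001 for all genes. Fbxo32, the ubiquitin ligase atrogin-1 (ENSMUSG00000022358, chromosome 15, 58175879 to 58214932), was 10.2, 10.4 and 10.8 CPM with vehicle, 189, 225 and 225 with rapamycin and 427, 423 and 452 with Torin-2. It rose over rapamycin by 1.03 ± 0.069 (SE) (adjusted p = 4.3e-07), on top of a log2 difference of 4.35 between rapamycin and vehicle, a comparison that shares the rapamycin libraries with the first. Cited2, a coactivator adaptor, went from 73.4, 63.0 and 80.8 CPM with rapamycin to 188, 175 and 190.3 CPM with Torin-2 against a vehicle mean of 11.1 (1.35 ± 0.090 (SE), adjusted p = 4.2e-07). The letters TGTTTAC, a FOXO core, stood in 2 of 27 windows of promoters of this list (7.41%) and in 2.40% of the 9493 windows of tested genes. The windows with the letters were those of Bcl2l11 and Txnip. The window of Cited2 lacked them, and Fbxo32 had no window. The insulin receptor pathway gene Irs2 was not called (0.25, adjusted p = 0.17), but it was with the replicate block in the 6 libraries (0.25, adjusted p = 0.0068), without the filter on low counts (0.26, adjusted p = 0.019) and without rapamycin replicate 1 (0.45, adjusted p = 0.012).

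The falls within the FOXO list were led by Klf2 and Klf4, Krüppel-like factors that restrain inflammatory gene expression. Klf2 stood at 69.8, 66.7 and 61.8 CPM with rapamycin and 9.41, 7.87 and 7.73 CPM with Torin-2, with no overlap (-2.99 ± 0.13 (SE), adjusted p = 1.7e-08). Klf4 fell from 6.64 ± 1.47 to 2.08 ± 0.0117 CPM (-1.68), and the mRNA-decay factor gene Zfp36l1 fell by 0.72. Klf2 and Klf4 are also on the list of early response and handling genes, where 11 of 23 tested members were lower and 3 higher (5 with library totals alone). On that list Nr4a1 stood at 6.90, 7.07 and 4.48 CPM with Torin-2 and 51.5, 62.6 and 40.9 CPM with rapamycin (-3.08) and Egr2 rose (0.53). The summed level of the list was 1681 to 1773 CPM with Torin-2, 1838 to 1955 with rapamycin and 995 to 1201 with vehicle, and the part of handling in these values was not tested.

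Autophagy genes leaned higher and lysosomal genes leaned lower. Of 48 tested genes of autophagy and its MiT/TFE regulators, 22 were higher and 12 lower, with a median of 0.15, and 0 changed by 2-fold. The receptor gene Optn, which carries ubiquitinated cargo to autophagosomes, went from 19.7, 14.2 and 19.8 to 35.6, 32.9 and 37.4 CPM (0.98 ± 0.13 (SE), adjusted p = 7.4e-05). Rragd, a Rag GTPase gene and known TFEB target, rose by 0.88, and the conjugation gene Atg12 by 0.73. The largest falls of this list were Atg13 (-0.52), Gabarapl2 (-0.51) and Atg2b (-0.49).

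Of 60 tested genes for the lysosomal proton pump and hydrolases, 33 were lower and 7 higher, with a median of -0.20. The cathepsin gene Ctsl stood at 2663, 2433 and 2219 CPM with rapamycin and 1077, 1191 and 909 CPM with Torin-2 (-1.20 ± 0.11 (SE), adjusted p = 5.4e-06), and Arsb, a sulfatase gene, fell by 1.51. The largest rise was Atp6v0d2, a macrophage and osteoclast form of a proton pump subunit. It stood at 340.0, 269 and 382 CPM with rapamycin and 942, 950.1 and 982 CPM with Torin-2, with no overlap (1.54 ± 0.13 (SE), adjusted p = 3.3e-06). Ctsk, the collagen-degrading cathepsin K, also rose (1.05). The letters TCACGTGA, the core of the CLEAR element that TFEB binds, were searched for on both strands of promoter windows that RefSeq gives on GRCm38.p6, from 250 bases before to 50 after the gene start. They stood in 6 of 47 lysosomal windows (12.8%), in 1 of 42 windows of the autophagy list (2.38%) and in 195 of the 9493 windows of tested genes (2.05%). The lysosomal genes that hold the letters did not share a direction. Atp6v0e and Atp6v0d1 were lower (-0.24 and -0.15), Mcoln1 was higher (0.31), and Ctsd, Gla and Atp6v1a were not called. The windows cover 75.9% of tested genes, and the shares speak for those genes alone.

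The noncoding hosts of small nucleolar RNAs had the highest median of the gene lists. These transcripts carry snoRNAs in their introns, and several of the spliced remnants are known to be removed by nonsense-mediated decay (NMD), which acts on RNAs as they are translated. Of 14 tested hosts, 10 were higher, 9 of them by at least 2-fold, and 0 were lower, with a median of 2.40 beside -0.001 for all genes. Snhg5 (ENSMUSG00000097195, chromosome 9, 88521050 to 88522929) went from 1.87, 0.947 and 2.11 CPM with rapamycin to 48.0, 52.7 and 53.3 CPM with Torin-2, with no overlap between the groups (4.99 ± 0.18 (SE), adjusted p = 5.7e-09). Snhg12 stood at 0.674 CPM with vehicle, 5.24 ± 2.62 with rapamycin and 64.4 ± 9.95 with Torin-2. The order of the 3 groups was not the same for every host: Snhg12 and Zfas1 were also higher with rapamycin than with vehicle (2.95 and 3.57), while for Snhg1 that difference was -0.17. The 4 members without a call, named after their values were seen, were Snhg10 (-0.23), Snhg20 (-0.13), Snhg14 (0.12) and Snhg3 (0.82).

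Genes of the NMD machinery rose more often than they fell. Of 18 tested NMD factors and SMG genes, 10 were higher, 7 of them by at least 2-fold, and 4 were lower, with a median of 0.40. The lower count was 2 without Torin-2 replicate 1, rapamycin replicate 2 or rapamycin replicate 3, each left out alone, and 2 with library totals alone. Smg5, which recruits decay enzymes to the NMD factor UPF1 (ENSMUSG00000001415, chromosome 3, 88336260 to 88362338), stood at 7.02, 6.41 and 7.03 CPM with vehicle, 8.43, 5.97 and 6.07 with rapamycin and 46.5, 50.4 and 54.7 with Torin-2. Vehicle and rapamycin overlapped and only the Torin-2 libraries were high (2.90 ± 0.12 (SE), adjusted p = 1.5e-08). Smg9, a partner of the SMG1 kinase, went from 12.3, 8.10 and 12.7 CPM with rapamycin to 76.3, 71.9 and 81.4 CPM with Torin-2 (2.80 ± 0.14 (SE), adjusted p = 4.7e-08), and the core factor gene Upf2 rose by 1.56. The falls of the list were in exon-junction and ER-associated members, among them Nbas (-0.43) and Rbm8a (-0.30).

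Ribosomal protein transcripts gave few calls, all but 1 of them small. Of 81 tested genes, 9 were higher and 16 lower, with a median of -0.02 beside -0.001 for all genes, and 0 changed by 2-fold, against 48.2% called among all genes. The list medians were 0.47 for rapamycin against vehicle and 0.48 for Torin-2 against vehicle, comparisons that share the vehicle libraries. Rpl4 fell (-0.34) and Rps9 rose (0.27), and Rpl22l1, a paralogue of Rpl22, went from 33.3, 41.1 and 34.0 to 64.6, 71.5 and 73.1 CPM (0.95 ± 0.14 (SE), adjusted p = 0.00013). The direction of the list rested on scaling and on 1 library: with library totals alone 19 were higher and 10 lower, without rapamycin replicate 3 the higher count was 17, and with the replicate block in the 6 libraries the lower count was 26. These genes have many processed copies in the genome, so single values are uncertain.

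Other genes of the translation machinery split. Of 52 tested initiation and elongation factors, 12 were higher and 15 lower (51.9% called, near the 48.2% of all tested genes). Eif1, the start-codon selection factor, stood at 161, 168 and 199 CPM with rapamycin and 488, 501 and 531 CPM with Torin-2 (1.52 ± 0.10 (SE), adjusted p = 3.7e-07). Eif5 rose from a mean of 173 to 441 CPM and the helicase gene Eif4a2 by 1.33. In the other direction, Eif5a, the hypusine-bearing elongation factor, fell from 511 ± 30.2 to 273 ± 14.6 CPM (-0.91), and Eif4g3 and Eif5b fell (-0.97 and -0.80). Ribosome biogenesis genes were also divided, 16 higher and 12 lower of 59 (47.5% called, again near that share). Taf1d (1.89), itself a snoRNA-bearing gene, Polr1c (0.80) and Npm1 (0.72) rose, and Nolc1 (-1.23), Rrp12 (-0.88) and Myc (-0.87) fell. Aminoacyl-tRNA synthetases, which charge tRNAs, fell more often: 15 of 24 were lower and 4 higher (7 with library totals alone), led by Wars (-1.03), Yars (-0.86) and Aars (-0.83).

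**Figure D3:**
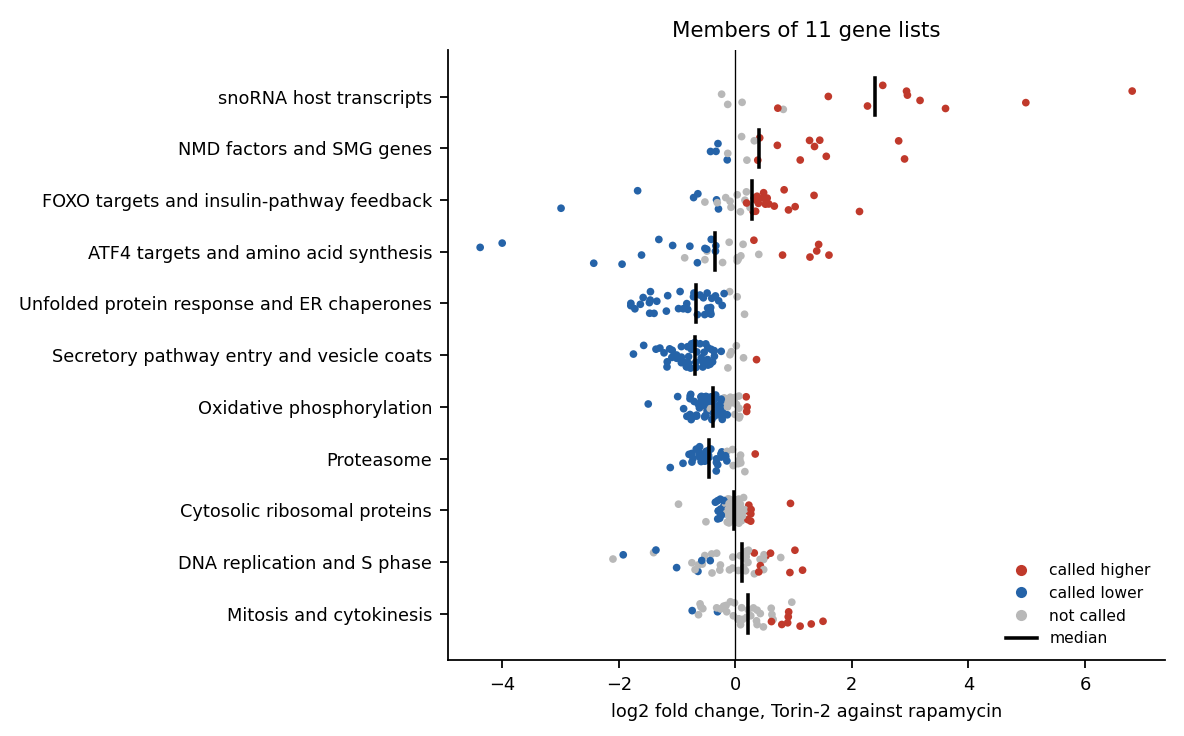
The log2 fold change, Torin-2 against rapamycin, of every tested member of 11 gene lists (points; red called higher, blue called lower, grey not called), with the list median as a black bar. The snoRNA hosts spread from -0.23 to 6.81, the ER and secretory lists lie almost wholly to the left of 0, and the ribosomal proteins cluster at 0.

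Genes of the endoplasmic reticulum (ER) fell as a block, with the largest share of falls among the pathway lists. The unfolded protein response (UPR) raises chaperones and folding enzymes when unfolded protein builds up in the ER, through the sensors ATF6, IRE1 and PERK. Of 40 tested genes for the UPR and ER chaperones, 37 were lower, 13 of them by at least 2-fold, and 0 were higher, with a median of -0.68. The list median was -0.28 for rapamycin against vehicle and -0.93 for Torin-2 against vehicle. Calr, the lectin chaperone calreticulin (ENSMUSG00000003814, chromosome 8, 84841850 to 84846934), was 3176, 3424 and 2975 CPM with vehicle, 1615, 1850.2 and 1549.9 with rapamycin and 502, 547 and 471 with Torin-2. The 3 groups stood apart in that order (-1.72 ± 0.086 (SE) for Torin-2 against rapamycin, adjusted p = 5.5e-08). Hyou1, an ER HSP70-family chaperone (ENSMUSG00000032115, chromosome 9, 44379490 to 44392369), went from 381, 401 and 398 CPM with rapamycin to 119.7, 109 and 111 CPM with Torin-2, again with no overlap (-1.79 ± 0.056 (SE), adjusted p = 4.8e-09), and Sdf2l1, a cofactor of the chaperone BiP, fell from 94.1 ± 10.5 to 27.2 ± 2.39 CPM. The 3 members without a call, named after their values were seen, were Edem1 (-0.10), Edem2 (0.16) and Ern1, which encodes IRE1 (0.03). With library totals alone, with the replicate block, or without rapamycin replicate 3, 1 member was called higher.

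Promoters of this list often hold the ER stress response element (ERSE), CCAAT and CCACG with 9 bases between them, which ATF6 binds together with NF-Y. It was found, on either strand, in 9 of 36 windows of the list (25.0%) and in 14 of 9493 windows of tested genes (0.147%). Of those 14 genes, 12 were called lower with Torin-2, 1 higher and 1 not. The 14 include the 9 of the list, all lower and already counted among its 37 falls, so the 12 are not a separate result. The elements of the list are printed 5′ to 3′ in the reading direction of the element, with CCAAT and CCACG in capitals and 6 bases on either side, in order of the gene's fold change from Calr (-1.72) to Ero1lb (-0.22). The capital blocks are what was searched for, the 9 bases between them were free, and their presence says nothing of whether a factor bound.
Calr: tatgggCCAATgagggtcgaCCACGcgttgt
Pdia6: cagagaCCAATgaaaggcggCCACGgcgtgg
Creld2: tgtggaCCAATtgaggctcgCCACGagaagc
Hspa5: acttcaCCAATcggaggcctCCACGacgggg
Dnajc3: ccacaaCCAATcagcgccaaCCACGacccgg
Hsp90b1, upstream copy: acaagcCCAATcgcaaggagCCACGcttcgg
Hsp90b1, downstream copy: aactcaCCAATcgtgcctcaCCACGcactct
Canx: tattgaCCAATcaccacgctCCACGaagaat
Syvn1: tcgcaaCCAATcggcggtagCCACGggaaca
Ero1lb: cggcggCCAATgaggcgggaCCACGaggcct

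The Calr element lies within the 250 bases before the gene start, chr8:84846932-84847181 on the minus strand of GRCm38.p6, and is printed there in the gene's direction, in which it reads as its reverse complement (capitals).
Calr, upstream: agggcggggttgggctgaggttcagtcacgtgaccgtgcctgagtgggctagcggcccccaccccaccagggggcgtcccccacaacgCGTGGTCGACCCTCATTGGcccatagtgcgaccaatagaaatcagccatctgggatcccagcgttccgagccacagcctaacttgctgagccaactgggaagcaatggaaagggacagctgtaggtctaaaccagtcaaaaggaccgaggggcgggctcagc

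The genes that hold these elements fell by different amounts, each named here because its window holds the element. Pdia6, a disulfide isomerase gene, had a fold change of -1.47, the secreted ER-stress gene Creld2 -1.47, and Hspa5, which encodes the master chaperone BiP, -1.46. The co-chaperone gene Dnajc3 had -1.16 and Hsp90b1, the ER HSP90, -0.95. The smaller falls were those of the lectin chaperone gene Canx (-0.47), the ligase gene Syvn1 (-0.44) and the oxidase gene Ero1lb (-0.22).

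**Figure D4:**
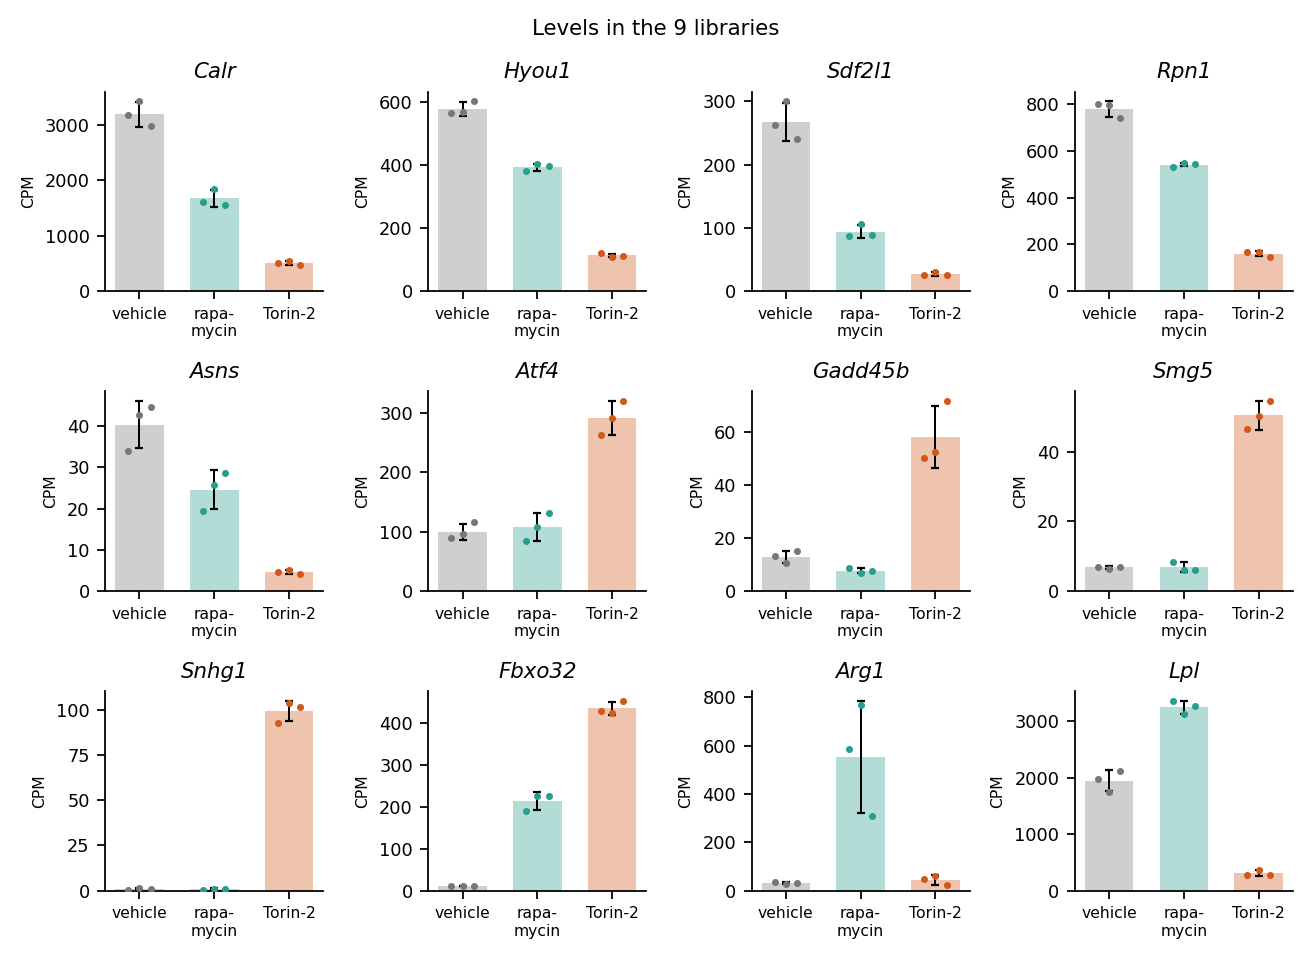
CPM in each of the 9 libraries for 12 genes (points), with bars at the group mean and error bars of 1 SD, n = 3 per group. Calr, Hyou1, Sdf2l1, Rpn1 and Asns step down from vehicle through rapamycin to Torin-2, Atf4, Gadd45b, Smg5 and Snhg1 are high only with Torin-2, Fbxo32 steps up, and Arg1 and Lpl are highest with rapamycin.

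Genes that carry proteins into and out of the ER fell with the chaperones. Of 55 tested genes for secretory entry and vesicle coats, 49 were lower, 13 of them by at least 2-fold, and 1, Sec24b (0.36), was higher, with a median of -0.69. The higher count was 2 without rapamycin replicate 3, with library totals or upper quartile factors, and with the replicate block. Rpn1, a subunit of the oligosaccharyltransferase that glycosylates nascent proteins, stood at 533, 547 and 544 CPM with rapamycin and 166, 169.8 and 148 CPM with Torin-2 (-1.75 ± 0.064 (SE), adjusted p = 5.9e-09). Sec13, a COPII coat gene, fell from 120.4 ± 3.75 to 40.5 ± 2.02 CPM, and Ostc, another glycosylation gene, from 124 ± 9.67 to 48.4 ± 1.52 CPM. The proteasome fell too, 32 of 41 members, with 1 higher and a median of -0.45. Psmb3 went from 89.7, 97.1 and 92.3 to 43.6, 43.1 and 42.1 CPM (-1.12), and Psmd13 and Psmd14 fell (-0.90 and -0.79). The 1 proteasome member called higher, Psmc6, lost its call without Torin-2 replicate 3, and the higher count was 2 without rapamycin replicate 3, with library totals, with upper quartile factors and with the replicate block.

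Atf4 rose while several of its known targets in amino acid synthesis fell. ATF4 is a transcription factor that induces amino acid synthesis and transport, and its mRNA is translated when initiation is limited. Of 31 tested genes of ATF4 and amino acid synthesis, 14 were lower, 7 by at least 2-fold, and 6 were higher, 4 by at least 2-fold, with a median of -0.34. Atf4 itself (ENSMUSG00000042406, chromosome 15, 80255184 to 80257541) stood at 89.7, 95.7 and 116 CPM with vehicle, 84.4, 109 and 132 with rapamycin and 263, 293 and 320.4 with Torin-2. Vehicle and rapamycin overlapped, and all Torin-2 libraries were higher (1.43 ± 0.14 (SE), adjusted p = 8.8e-06). The related factor gene Atf5 also rose (1.61, adjusted p = 1.8e-06), as did Ddit3, which encodes CHOP (1.40, adjusted p = 0.014). The call of Ddit3 was lost without Torin-2 replicate 3 (1.19), rapamycin replicate 1 (1.16) or rapamycin replicate 2 (1.17), and the list's higher count was 3 without Torin-2 replicate 3 or rapamycin replicate 2.

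Several enzyme genes were among the falls. Asns, which makes asparagine (ENSMUSG00000029752, chromosome 6, 7675169 to 7693254), stood at 33.9, 42.7 and 44.6 CPM with vehicle, 19.3, 25.7 and 28.6 with rapamycin and 4.65, 5.05 and 4.07 with Torin-2, in separate ranges for Torin-2 and rapamycin (-2.43 ± 0.17 (SE), adjusted p = 5.3e-07). Aldh18a1, of proline synthesis, fell from 36.8 ± 4.98 to 9.62 ± 1.42 CPM. Chac1, a glutathione-degrading enzyme gene and known ATF4 target (ENSMUSG00000027313, chromosome 2, 119351229 to 119354381), fell from 1.67, 2.37 and 3.36 to 0.160, 0.106 and 0.0822 CPM (-4.38 ± 0.48 (SE), adjusted p = 1.6e-05), which rests on 7 counts over the 3 Torin-2 libraries and 143 over the 3 rapamycin libraries. Amino acid transporter genes showed 11 lower and 5 higher of 25, with Slc7a8 (-1.26) and Slc7a5 (-1.09), both light chains of leucine carriers, among the falls, and the cystine carrier gene Slc7a11 (0.61) and Slc38a2 (0.45) among the rises.

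The letters TGATGNAA, the core of the element that ATF4 binds with C/EBP proteins, stood in 8 of 28 windows of this list (28.6%) and in 211 of 9493 windows of tested genes (2.22%). They are printed with 6 bases on either side and the match in capitals, since genes with the same letters went in both directions: Chac1, Asns, Trib3 (-1.31), Herpud1 (-0.65) and Got1 (-0.34) were lower, and Atf3 (0.32, a call lost without Torin-2 replicate 3 or rapamycin replicate 2) and Nupr1 (0.81) higher. Pycr1, of proline synthesis, was also lower, at means of 0.107 CPM with Torin-2 and 1.66 CPM with rapamycin (adjusted p = 0.00014). These genes are named because their windows hold the letters.
Chac1: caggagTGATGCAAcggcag
Pycr1: tgtgtaTGATGCAAtgcaca
Asns: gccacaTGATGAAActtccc
Trib3: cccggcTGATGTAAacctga
Herpud1: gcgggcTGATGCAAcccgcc
Got1: cttgtaTGATGCAAccaatg
Atf3: acttggTGATGCAAgtgcga
Nupr1: cctgtcTGATGCAAtctggc

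The Chac1 match lies within the 250 bases before the gene start, chr2:119350992-119351241 on the plus strand of GRCm38.p6, printed here in the gene's direction with the match in capitals as its reverse complement.
Chac1, upstream: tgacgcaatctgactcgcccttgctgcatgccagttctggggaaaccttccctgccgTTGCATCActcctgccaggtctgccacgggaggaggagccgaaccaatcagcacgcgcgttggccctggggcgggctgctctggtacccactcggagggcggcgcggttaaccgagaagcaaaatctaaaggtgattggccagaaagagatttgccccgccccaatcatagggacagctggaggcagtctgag

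Mitochondrial and glycolytic genes fell in large part. Of 76 tested genes of oxidative phosphorylation, 57 were lower and 3 higher, with a median of -0.38. The 3 rises were small (Sdha, 0.20; Atp5g2, 0.19; Uqcrfs1, 0.19), and without Torin-2 replicate 2, rapamycin replicate 1 or rapamycin replicate 2 only 1 was called. Cycs, the gene of cytochrome c, stood at 40.9, 43.8 and 43.8 CPM with rapamycin and 14.0, 17.0 and 14.7 CPM with Torin-2 and was the only member that fell by at least 2-fold (-1.49 ± 0.078 (SE), adjusted p = 8.1e-08). Ndufa1 and Cox6a1, subunits of complexes I and IV, fell (-0.99 and -0.89). TCA cycle genes were lower for 13 of 24 (8 with library totals alone) and higher for 7, with Mdh1 (-0.98) and Mdh2 (-0.82), the malate dehydrogenases, among the falls.

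Of 37 tested glycolysis genes and HIF-1 targets, 21 were lower and 6 higher, with a median of -0.34. P4ha2, a collagen prolyl hydroxylase gene, went from 38.4, 36.5 and 29.3 CPM with rapamycin to 8.93, 8.29 and 8.42 CPM with Torin-2 (-2.02 ± 0.10 (SE), adjusted p = 5.9e-08), and P4ha1 and Car9 fell (-1.09 and -1.28). Hif1a fell by less (-0.29, adjusted p = 0.0007). Ndrg1 and Kdm3a rose (1.28 and 0.61). The higher count was 2 without Torin-2 replicate 3 and 3 without Torin-2 replicate 2, rapamycin replicate 1 or rapamycin replicate 2. The letters ACGTG, the core of the HIF element, stood in 20 of 34 windows of this list (58.8%) and in 2504 of 9493 windows of tested genes (26.4%), and every CLEAR match also contains them.

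Lipid genes, the subject of the study's model, differed by branch. The study used rapamycin as the control for mTORC1 inhibition because, by its own account, rapamycin left lipid accumulation unaffected. Of 25 tested genes of lipid uptake, 11 were lower and 7 higher. Besides Lpl, the fatty acid receptor gene Cd36 stood at 8992, 9378 and 8323 CPM with vehicle, 13350.4, 14741 and 13105 with rapamycin and 7317, 8421 and 6925 with Torin-2. Torin-2 lay below rapamycin in every library (-0.86 ± 0.086 (SE), adjusted p = 8.8e-06), while the difference of Torin-2 from vehicle was -0.24. Msr1, scavenger receptor A, fell from 751, 759 and 689 to 219, 206 and 189 CPM, a range well below vehicle at 723 (-1.84 ± 0.079 (SE), adjusted p = 1.6e-08). Gas6, Cxcl16 and the mannose receptor gene Mrc1 rose (0.98, 1.11 and 1.01).

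Among 24 tested lipid droplet and triglyceride genes, 12 were lower and 6 higher. Plin2, the coat protein of macrophage lipid droplets, stood at 2587, 2606 and 2559 CPM with Torin-2 and 2803, 2868 and 2843 CPM with rapamycin. The groups did not overlap, but the difference was small and did not pass the threshold (-0.14 ± 0.052 (SE), adjusted p = 0.051). With the replicate block Plin2 passed it, at -0.14 with an adjusted p of 0.048 in edgeR's test, and at -0.15 with 0.017 in the 6 libraries alone. It also passed in the 6 libraries without the block (0.027), without vehicle replicate 2 (0.041), with DESeq2 size factors (0.040), with a minimum mean of 1 CPM (0.042), in DESeq2's Wald test (0.00090) and in limma-voom (0.018), always as a fall of similar size. Under the other alternatives it did not pass, among them library totals, upper quartile factors and leaving out each Torin-2 or rapamycin library in turn. Abhd5, the activator of adipose triglyceride lipase, fell (-0.65), as did the triglyceride synthesis genes Lpin2 (-0.62) and Agpat1 (-0.51), and the hormone-sensitive lipase gene Lipe and Agpat2 rose (0.64 and 0.59).

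Fatty acid synthesis genes leaned lower, 12 of 21 with 2 higher and a median of -0.37. The higher count was 1 without Torin-2 replicate 1 or rapamycin replicate 2. Scd2 stood at 72.7, 59.9 and 68.1 CPM with rapamycin and 15.6, 12.0 and 11.5 CPM with Torin-2 (-2.37 ± 0.17 (SE), adjusted p = 6.8e-07), the acetyl-CoA synthetase gene Acss2 fell from 39.4 ± 0.230 to 10.7 ± 1.01 CPM, and Srebf1 was not called (-0.05, adjusted p = 0.51, positive with library totals alone). Of 26 tested cholesterol synthesis genes, 9 were lower and 5 higher (53.8% called, near the 48.2% of all tested genes). Tm7sf2 (-1.04), Sqle (-0.91) and Msmo1 (-0.89) fell and Lss rose (0.63). Srebf2 was not called (-0.07, adjusted p = 0.43), and its sign also turned with library totals.

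Cholesterol efflux genes were split, 8 lower and 6 higher of 18. The cholesterol exporter gene Abca1 fell from 1106 ± 65.4 to 811 ± 39.0 CPM (-0.45, adjusted p = 8.4e-05), and Pltp from 657 ± 30.3 to 305 ± 16.8 CPM, still above vehicle at 85.5. Abca5, Abca9 and Apoc1 rose from low levels (1.41, 1.54 and 2.68). Apoe was 6344, 7299 and 6000.5 CPM with Torin-2 and 5862, 5299 and 4875 CPM with rapamycin, both above the vehicle mean of 1356, and was not called between the compounds (0.29, adjusted p = 0.3). Apoe was called higher with Torin-2 in the 6 libraries alone (0.27, adjusted p = 0.029, or 0.00072 with the replicate block), without vehicle replicate 3 (0.29, adjusted p = 0.042) and without the filter on low counts (0.30, adjusted p = 0.00019). Fatty acid oxidation genes were lower for 14 of 34 and higher for 6, or 3 without rapamycin replicate 2, with Hadhb (-0.82) and Hsd17b4 (-0.70) falling and Acot1 rising (1.12), a value that is uncertain because Acot1 has a near-identical neighbour.

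**Figure D5:**
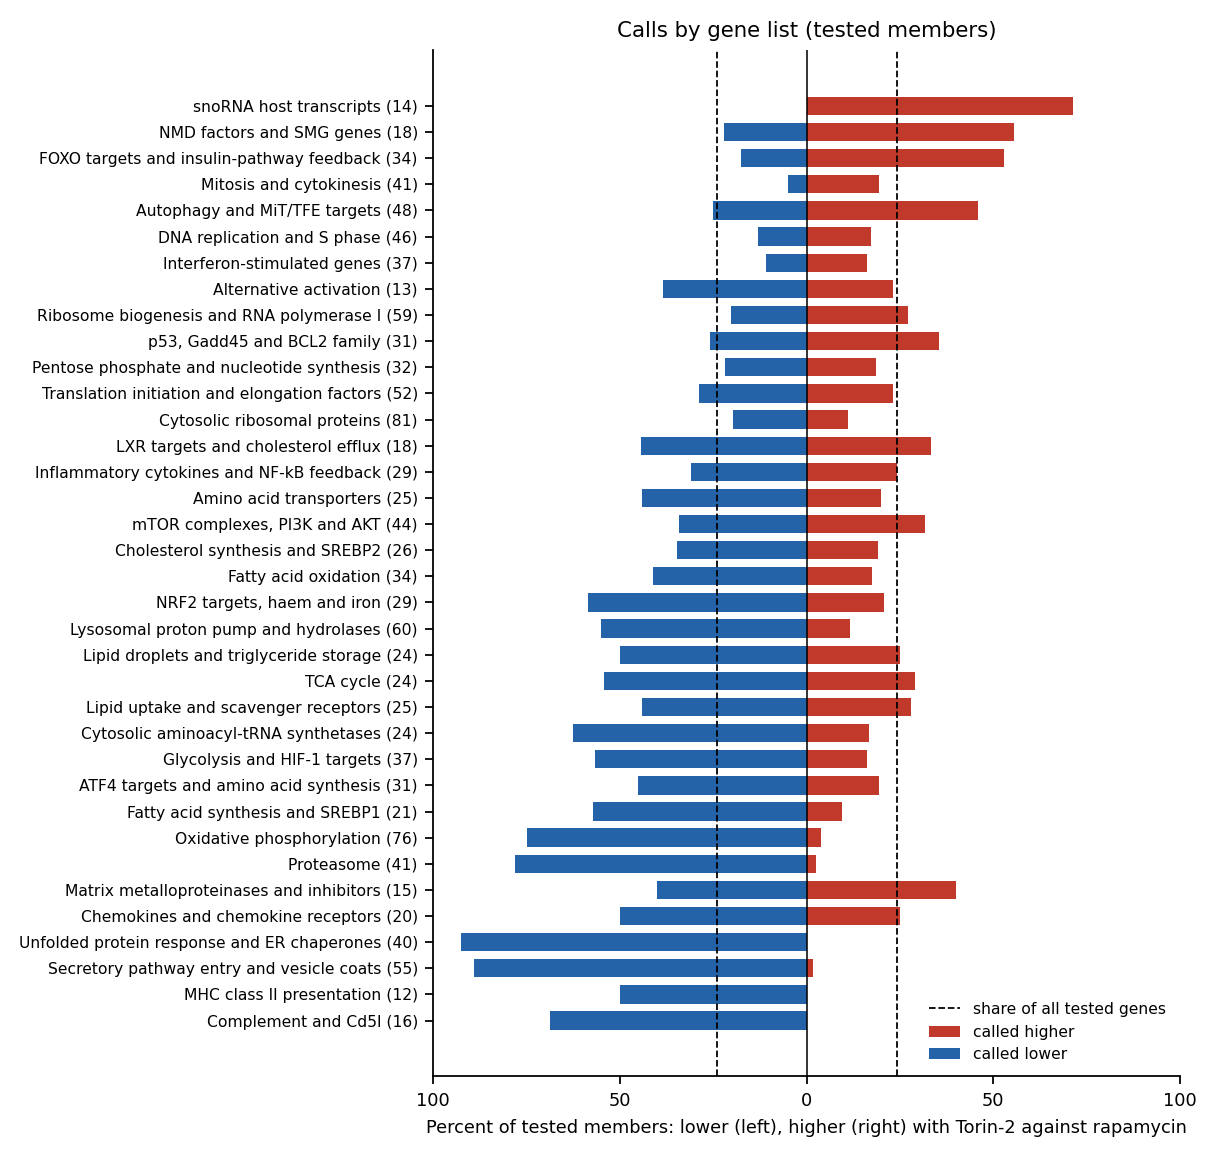
The percent of tested members of each pathway list that were called lower (blue, left) or higher (red, right) with Torin-2 against rapamycin, ordered by the list median, with the number of tested members in parentheses. Dashed lines mark the shares among all tested genes, 24.1% lower and 24.2% higher; the ER and secretory lists reach farthest to the left and the snoRNA hosts farthest to the right.

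Cell cycle genes, whose medians against vehicle were far below 0 with both compounds, gave fewer calls between them than genes at large. Calls were also fewer at low levels among all genes, 32.7% at 1 to 5 CPM and 17.9% under 1 CPM. No share matched for level was computed. For 46 tested genes of DNA replication, the median was -1.43 for rapamycin against vehicle, -1.36 for Torin-2 against vehicle and 0.11 for Torin-2 against rapamycin. Of these, 8 were higher and 6 lower, against 48.2% called among all genes. The higher count was 5 without Torin-2 replicate 3 and 13 without vehicle replicate 3, and the lower count was 10 without vehicle replicate 3. Pcna, the sliding clamp of DNA polymerase, was an exception. It stood at 489, 487 and 437 CPM with vehicle, 545, 529 and 587 with rapamycin and 145, 150.0 and 143 with Torin-2, so only Torin-2 was low (-1.92 ± 0.063 (SE), adjusted p = 4.8e-09). The replication licensing genes Cdt1 and Mcm7 rose (0.94 and 1.02) and E2f2 fell (-1.01).

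Of 41 tested mitotic genes, 8 were higher and 2 lower, with a median of 0.22 beside -1.53 for rapamycin against vehicle. The higher count was 2 without Torin-2 replicate 3, rapamycin replicate 1 or rapamycin replicate 2, 5 without Torin-2 replicate 1 or vehicle replicate 1, and 15 with the replicate block in the 6 libraries. The lower count was 1 without any 1 of Torin-2 replicates 1 and 2, the 3 rapamycin replicates and vehicle replicate 1. Ube2c, of the anaphase-promoting complex pathway, rose from 11.9, 9.90 and 14.6 to 35.5, 34.9 and 33.0 CPM (1.51 ± 0.29 (SE), adjusted p = 0.0011), and Cdc20 by 1.30.

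Nucleotide synthesis genes were split, 7 lower and 6 higher of 32 (40.6% called, below the 48.2% of all tested genes). Impdh2, which commits purines to guanine nucleotides, rose by 0.87. Ctps, the CTP synthase, fell from 7.09 ± 0.871 to 2.89 ± 0.0907 CPM (-1.30), and the kinase gene Nme1 fell by 1.27.

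The Gadd45 family of stress sensors rose together. Gadd45b (ENSMUSG00000015312, chromosome 10, 80930073 to 80932204) was 13.3, 10.6 and 15.2 CPM with vehicle, 8.82, 6.72 and 7.57 with rapamycin and 50.4, 52.7 and 71.9 with Torin-2, and the Torin-2 libraries stood above both other groups (2.93 ± 0.17 (SE), adjusted p = 1.7e-07). Gadd45a went from 42.3 ± 11.5 to 185 ± 38.6 CPM and Gadd45g from 3.86 ± 1.35 to 24.5 ± 4.18 CPM (2.13 and 2.67). Over the whole list of p53 targets, Gadd45 and BCL2 genes, 11 of 31 were higher and 8 lower, and the p53 target Phlda3 and the kinase gene Plk2 fell (-1.16 and -1.23).

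Inflammatory genes were called in both directions. Of 29 tested cytokine and NF-kB feedback genes, 7 were higher and 9 lower (55.2% called, near the 48.2% of all tested genes). With the replicate block in the 6 libraries 14 were lower. The rises were led by Il1rn, the maturation marker Cd83, which went from 74.4 ± 2.82 to 184 ± 4.65 CPM, and the NF-kB subunit gene Relb (0.88). Zfp36, whose protein destabilises cytokine mRNAs, fell from 203, 177 and 168 to 94.0, 86.8 and 91.3 CPM, back to near the vehicle mean of 82.8 (-1.01 ± 0.077 (SE), adjusted p = 1.2e-06). Of 20 tested chemokine and receptor genes, 10 were lower and 5 higher. The chemokine genes Ccl3 and Ccl4 rose (1.79 and 1.27). Cx3cr1, the fractalkine receptor gene, fell from 4.36 ± 1.95 to 0.260 ± 0.108 CPM.

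Matrix proteases moved both ways, while calls among complement and MHC class II genes were falls. Of 15 tested proteases and inhibitors, 6 were higher and 6 lower, and the rises were Mmp8, Mmp13 (1.12) and Mmp9 (1.06) at the top, with Timp3 (-2.11), a protease inhibitor gene, the largest fall. Complement genes were lower for 11 of 16 and higher for 0, with a median of -0.72. C1qa and C1qc, chains of the recognition protein C1q, stood at 186, 210.4 and 116 and 629, 668 and 434 CPM with rapamycin, and at 60.2, 56.1 and 48.2 and 217, 211 and 180.0 CPM with Torin-2. Both were apart between the compounds (-1.64 and -1.51). MHC class II genes were lower for 6 of 12 and higher for 0, with Cd74 falling from 7.53 ± 1.97 to 3.01 ± 1.06 CPM and H2-DMa by -1.01.

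Alternative activation genes moved both ways, and interferon genes gave fewer calls than the 48.2% among all genes. That share runs over all levels and was not matched to the levels of the interferon genes. Of 13 tested genes of alternative activation, 5 were lower and 3 higher, or 5 higher without rapamycin replicate 3, with library totals or upper quartile factors, and with the replicate block. Tgm2, a transglutaminase gene, fell from 945 ± 188 to 272 ± 16.3 CPM (-1.79) in the same direction as Arg1. Mrc1 rose, as did Il1rn (3.48) and Egr2 (0.53), which are also on this list. Of 37 tested interferon-stimulated genes, 6 were higher and 4 lower, 3 higher without Torin-2 replicate 3, and 11 higher and 7 lower with the replicate block. Oas2, an antiviral RNA sensor, rose from 0.663 ± 0.0897 to 3.88 ± 2.69 CPM and Irf1 by 0.80, and Dhx58, another RNA sensor gene, fell (-0.84).

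Antioxidant and iron genes mostly fell, 17 of 29 with 6 higher (10 with library totals alone). Hmox1, the haem-degrading enzyme, went from 7552, 8319.7 and 6268 CPM with rapamycin to 2554, 3341 and 2200.4 CPM with Torin-2, against a vehicle mean of 10190.2 (-1.45 ± 0.14 (SE), adjusted p = 6.3e-06). Nqo1 and Prdx1 fell (-1.80 and -1.17). Osgin1, an NRF2 target linked to growth inhibition, rose from 8.95, 10.1 and 9.32 to 50.3, 51.9 and 63.2 CPM (2.54 ± 0.20 (SE), adjusted p = 1.7e-06).

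Markers of macrophages and of other cells also differed between the compounds. Of 20 macrophage markers, 13 were lower and 3 higher, with a median of -0.34 and a summed level of 28023 to 29832 CPM with Torin-2, 32385 to 34670.0 with rapamycin and 22967 to 29342 with vehicle. Adgre1, which encodes F4/80, was 674, 659.9 and 709 CPM with Torin-2 and 701, 641 and 784 CPM with rapamycin and was not called (-0.06, adjusted p = 0.58), its sign turning without rapamycin replicate 3 (0.02) and with library totals (0.02). Fcgr3, an activating Fc receptor gene, rose from a mean of 723 to 1263 CPM, and Fcgr1 and Aif1 fell (-1.07 and -1.36). Of 7 tested osteoclast genes, 4 were higher and 2 lower, among them the integrin gene Itgb3 (1.93) and Acp5 (-0.96). Their summed level was 1160.5 to 1187 CPM with Torin-2, 379.7 to 502 with rapamycin and 447 to 618 with vehicle. Most of that sum was Atp6v0d2, at means of 958 CPM with Torin-2, 330 with rapamycin and 413 with vehicle.

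Transcripts of spinal cord cells, which the homogenate itself may carry, were lower with Torin-2. Of 8 tested oligodendrocyte and myelin markers, 7 were lower (4 without rapamycin replicate 2), with a summed level of 368 to 425 CPM with Torin-2, 695 to 851 with rapamycin and 483 to 617 with vehicle. Mobp, a myelin protein gene, went from 120.2, 115 and 106 to 44.8, 33.9 and 45.9 CPM (-1.45 ± 0.11 (SE), adjusted p = 1.3e-06), and Mbp from 613 ± 67.7 to 327 ± 25.1 CPM. Of 9 tested astrocyte markers, 7 were lower, or 4 without Torin-2 replicate 1, Torin-2 replicate 2 or rapamycin replicate 2, with a summed level of at most 41.3 CPM with Torin-2, 51.9 to 81.5 with rapamycin and 57.3 to 73.4 with vehicle. Gfap fell from 17.7 ± 5.18 to 7.26 ± 0.308 CPM. Neuronal markers summed to 18.9 to 22.9 CPM with Torin-2, 28.9 to 34.8 with rapamycin and 19.8 to 26.7 with vehicle, with 4 of 8 lower (2 without rapamycin replicate 1) and 1 higher. The higher count was 0 without Torin-2 replicate 2 or 3 or rapamycin replicate 1 or 2. The part of homogenate RNA in the other results was not tested.

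The collagen falls are given beside these markers, and the source of the collagen transcripts was not tested. Of 8 tested fibroblast and meningeal markers, 5 were lower and 0 higher, with a summed level of 3.29 to 10.9 CPM with Torin-2, 15.3 to 95.7 with rapamycin and 11.7 to 48.9 with vehicle. Col1a1 stood at 0.374, 0.744 and 0.247 CPM with Torin-2 and 25.2, 15.5 and 3.36 CPM with rapamycin (-5.03 ± 0.85 (SE), adjusted p = 0.00044). Replicate 3 was the lowest of both groups, and the fall was seen within every replicate number. Col1a2, Col3a1 and Col5a1 also fell (-2.97, -3.67 and -3.63). When Torin-2 replicate 3 or any 1 rapamycin or vehicle library was left out, 1 member was called higher. Of 4 tested endothelial markers 1 was higher, Vwf (2.01), of 6 microglial markers 2 were lower and 0 higher (1 lower without Torin-2 replicate 3, rapamycin replicate 1 or rapamycin replicate 2), and of 2 neutrophil markers Csf3r rose (1.13) and S100a8 fell (-1.21). The 1 tested lymphocyte marker was not called, 6 of 11 lymphocyte markers were at 0 in all 9 libraries, and 0 markers of dendritic, mast or erythroid cells reached the test.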

How the data were processed

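The deposited table holds raw counts per gene for 9 libraries as the authors left them. The submitters' processing notes name STAR (2.5.2a), FastQC and bcl2fastq, and the builds mm10 and GRCm38.p6. Libraries were made with a NuGEN mRNA kit and read as paired ends of 100 bases, per the labels' protocols. How reads were assigned to genes, and with which strand setting, is not given in the sources used.

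Genes were filtered with filterByExpr by group, scaled by TMM and fitted with edgeR 4.0.16 (quasi-likelihood, R 4.3.3) over all 9 libraries in 3 groups, with Benjamini-Hochberg adjustment over 12511 genes. Tested genes held at least 99.92% of each library's counts, and TMM factors ran from 0.955 to 1.05. On simulated counts for this comparison over 12511 genes, the fit recovered 55% of 100 genes changed 1.5-fold and 74% of 100 changed 2-fold. No other gene was changed there, whereas 6035 were called in the data, so these shares do not measure the recovery in the data. Replicate pairs differed beyond sampling noise, with a chi-square per degree of freedom of 4.5 to 51.4.

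Named genes are the 15 largest rises and 15 largest falls among called genes with a mean of at least 5 CPM and no overlap between groups, up to 3 rises and 3 falls per list among members of at least 1 CPM, and 30 genes given by name. Some genes that the rule names are not reported here. Other genes are named as holders of a promoter element or, where said, after their values were seen. Among the largest changes the rule leaves out a short list of genes tied to sex, predicted genes, clone names and pseudogenes. Members, lists and this rule were chosen with earlier results of these data known. Symbols listed more than once in the table (Aldoa and Crybg3) were left out of lists, and 0 genes of the mitochondrial chromosome are in the table. Positions are from GENCODE M21 on GRCm38. Named genes that overlap another tested gene there, and are uncertain to that extent, also include Acss2, Arsb, Atf5, Atg2b, Car9, Cdc20, Csf1r, Cx3cr1, Cxcl16, Ddit3, Eif4a2, Eif5b, Fbxo32, Gadd45a, Gas6, H2-DMa, Hif1a, Hsd17b4, Impdh2, Mcm7, Mdh1, Nbas, Pltp, Psmd13, Rps6kb1, Rptor, Srebf1, Taf1d, Tgm2, Tm7sf2, Wars, Yars, Zfp36 and Zfp36l1.

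Same-numbered libraries may be paired, but the sample titles give only the numbers, and the main fit used no replicate block. Deviations from group means correlated at 0.237 to 0.5 for same-numbered Torin-2 and rapamycin libraries and at -0.339 to 0.162 for the other pairs. The value of 0.5 was that of replicate 3. Replicates 1 and 2 gave 0.264 and 0.237, beside 0.13 and 0.162 for the pairs across these numbers. Marrow of different animals was kept apart per the labels. DESeq2 1.42.0 and limma 3.58.1 were used as alternatives, as were other scalings, filters, sample sets, the replicate block and leaving out each library.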

Additional observations from a re-analysis of the deposited data

How the results depend on the processing

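The counts of genes higher and lower stayed within 1.5 times of 3025 and 3010 under all 20 alternatives, at 2586 to 3635 higher and 2456 to 3685 lower. The counts at 2-fold ran from 507 to 757 higher and from 445 to 695 lower. Leaving out each library in turn gave 2586 to 3094 higher and 2582 to 3084 lower, and 595 to 678 and 488 to 695 at 2-fold. The alternative without the libraries numbered 3, chosen after seeing the data, gave 2904 higher and 2844 lower. With the replicate block, 3378 genes were higher and 3453 lower. The block ended 0 calls among the 262 named genes and added 2, or 4 with the 6 libraries alone. Library totals alone turned the sign of Adgre1 (0.017), Akt1 (0.027), Srebf1 (0.029) and Srebf2 (0.0052), none of which was called. Without single libraries Adgre1 ran from -0.127 to 0.021. Of 253 named genes called, 217 kept their call under every alternative that tested them and 36 lost it under at least 1; the causes were not tested. With 3 libraries per group the simulated fit missed 45 of 100 genes changed 1.5-fold, with far fewer genes changed than were called in the data. A gene without a call may still differ, and genes under 1 CPM were called in 17.9% of cases against 70.1% at 100 to 1000 CPM.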
